A study of Mus musculus with 4 samples.

Results

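The genes described here are Cebpa, Cebpb, Cebpd and Cebpg, which encode CCAAT/enhancer-binding proteins (C/EBPs), and Atf3, which encodes activating transcription factor 3. They were chosen by symbol, each symbol matched 1 gene identifier, and they make up 5 of the 55536 genes measured. Polyadenylated RNA was sequenced from whole-cell extracts of macrophages derived from C57BL/6J mouse bone marrow, which are primary phagocytic cells raised in culture. All 4 libraries, which the labels number as biological replicates (1 to 4), belong to 1 group: cells exposed for 60 minutes to 100 ng/mL of a stimulus. The labels name that stimulus lipid A, the Toll-like receptor 4 ligand of bacterial lipopolysaccharide, in one field and lipoprotein A in others, and give no age or sex of the mice. The same donor label is attached to all of them, with no word on whether animals or cultures were separate, so p-values reflect no more than how these 4 samples differ, and that spread could be technical. No unstimulated cells were analysed here, so the values are levels at a single time and measure no response to the stimulus.

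All 5 genes encode basic leucine zipper proteins, transcription factors that bind DNA as dimers held together by a coiled zipper. C/EBPα is known as a factor that commits marrow precursors to the myeloid lineage and restrains their division, and C/EBPβ and C/EBPδ as factors of inflamed macrophages that act on cytokine and acute-phase genes. C/EBPγ has a zipper but lacks the strong activation domains of its relatives and mostly acts as their dimer partner. ATF3 binds cyclic AMP response elements and related AP-1 sites, is made quickly after many kinds of stress, and is known in macrophages as a brake on Toll-like receptor target genes.

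Markers of the labelled cell type were looked at first. All 10 macrophage markers examined, among them Csf1r, Cd68 and Lyz2, reached 1 TPM (a relative abundance that allows for transcript length) in every library. Since 9641 of 22028 protein-coding genes reached that level, it does not by itself establish the cell type. Total gene counts per library ranged from 26917324 to 39438414. Ribosomal RNA took 3.43% to 12.4% of the counts, with the highest share in replicate 1, and mitochondrially encoded genes took 1.31% to 3.11%, with the highest share in replicate 3. Genes listed as granulocyte precursor markers summed to 235, 135, 774 and 84.3 TPM in replicates 1 to 4. That sum is mostly S100a8 and S100a9 (181 and 457 TPM in replicate 3), and the early granule gene Mpo averaged 0.477 TPM. The sum therefore does not establish that precursors were present. Replicate 3 stands apart in these markers, and levels, ratios, ranges and main isoform shares that rest on it are also given without it.

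The start regions of the genes differ in the motifs they hold. The stretches just before the RefSeq start sites of Atf3, Cebpb and Cebpa are shown because these genes had the highest levels. They come from the RefSeq promoter table on GRCm38.p6, which matched 4 of the 5 members (Atf3, Cebpa, Cebpb and Cebpg), and capitals mark a cyclic AMP response element (CRE) in Atf3, the shorter CRE core TGACG in Cebpb, and the C/EBP core TTGCG and a TATA box in Cebpa. The Atf3 stretch is chr1:191183334-191183433 on the minus strand, that of Cebpb is chr2:167688795-167688914 on the plus strand, and that of Cebpa is chr7:35119093-35119292 on the plus strand.
Atf3: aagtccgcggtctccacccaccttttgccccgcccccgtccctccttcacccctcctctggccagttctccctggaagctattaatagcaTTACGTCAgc
Cebpb: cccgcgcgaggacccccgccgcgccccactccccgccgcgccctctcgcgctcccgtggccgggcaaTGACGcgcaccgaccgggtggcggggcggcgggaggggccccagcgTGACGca
Cebpa: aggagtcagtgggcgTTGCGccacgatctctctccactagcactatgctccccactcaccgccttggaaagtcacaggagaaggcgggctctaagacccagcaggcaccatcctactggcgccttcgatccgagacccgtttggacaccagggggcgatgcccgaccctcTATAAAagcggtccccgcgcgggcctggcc

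Motifs were searched on both strands in the 250 bases before each start, and the share of all 32841 RefSeq windows of that length holding each motif is given beside it. The Atf3 window had 1 match to the CRE written TGACGTNA, a motif found in 2.52% of windows. It lay from 10 to 3 bases before the RefSeq start and on the opposite strand. The core of this CRE overlaps the same letters as the only TGACG match in that window. In GENCODE M21 the first exon of Atf3-201, the main transcript, begins at 191183340, inside this CRE, so the CRE spans that start. Cebpb had 3 matches to TGACG, which 17.8% of windows hold, the nearest from 7 to 3 bases before the start. Both Cebpb and Atf3 had 5 GC boxes (GGGCGG, in 32.7% of windows), of which some overlap each other. Cebpa had 1 TTGCG, 185 bases before the start (14.5% of windows), and 1 TATAAA, 30 bases before it (12.4% of windows). In Cebpg, 2 CCAAT boxes were found, at 89 and 28 bases before the start (33.9% of windows). None of the 4 windows held the palindromic C/EBP motif TTGCNNAA (9.57% of windows), the AP-1 motif TGANTCA (6.75%), the STAT motif TTCNNNGAA (7.02%) or an NF-κB motif (3.90%), which says only that these letters are not in these windows.

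The genes also differ in structure, on mm10 with GENCODE M21. Cebpb (ENSMUSG00000056501.3, chromosome 2 from 167688915 to 167690418, plus strand) has 1 transcript of 1 exon, with 296 codons. Cebpd (ENSMUSG00000071637.5, chromosome 16 from 15887286 to 15891031, plus strand) has 268 codons in 1 exon of its main transcript. Cebpa (ENSMUSG00000034957.10, chromosome 7 from 35119293 to 35121928, plus strand) and Cebpg (ENSMUSG00000056216.9, chromosome 7 from 35046422 to 35056573, minus strand) lie 62.7 kb apart with no protein-coding gene between them and are read away from each other. Atf3 (ENSMUSG00000026628.13, chromosome 1 from 191170296 to 191218039, minus strand) has 181 codons spread over several exons. The coding sequences of Cebpb, Cebpa and Cebpd are 73.4%, 71.9% and 70.4% G and C, above those of 99.8%, 99.7% and 99.5% of 10817 genes, while those of Atf3 and Cebpg are 51.0% and 50.7%.

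Atf3 was the most abundant of the 5 messages in every library. Replicates 1 to 4 had 412.15, 783.29, 749.33 and 887.93 TPM of it, a mean of 708 ± 206 TPM (SD, n = 4). In gene-level TPM only replicate 1 was far from the rest, at the low end. In scaled counts, given below, replicate 3 lay between replicate 1 and the others. This level ranked 176 among 22028 protein-coding genes, with 99.2% of them lower, and rested on 12440 to 37136 expected counts per library.

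Cebpb came next by mean level, and its libraries did not lie together. It stood at 76.84, 120.76, 29.23 and 74.88 TPM, a mean of 75.4 ± 37.4 TPM (SD, n = 4, rank 1544), from 1676, 2958, 899 and 2439 expected counts. Replicate 3 was lowest and replicate 2 highest, with replicates 1 and 4 close together. Without replicate 3 the mean was 90.8 ± 25.9 TPM (SD, n = 3).

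Cebpa varied little around a mean of 40.6 ± 4.33 TPM (SD, n = 4, rank 2707). Its values were 36.86, 40.51, 46.64 and 38.2 TPM, with replicate 3 the highest, so the library that was lowest for Cebpb was highest for Cebpa. Without replicate 3 the mean of Cebpa was 38.5 ± 1.85 TPM (SD, n = 3).

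Cebpg, the partner without strong activation domains, stood at 11.8, 10.43, 13.05 and 10.22 TPM, a mean of 11.4 ± 1.32 TPM (SD, n = 4, rank 6090). As for Cebpa, the 4 values lay close together and replicate 3 was highest. Without it the mean was 10.8 ± 0.858 TPM (SD, n = 3).

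Cebpd was the least abundant, at 3.24, 4.65, 0.81 and 2.07 TPM, a mean of 2.69 ± 1.64 TPM (SD, n = 4, rank 9110), from 197, 299, 70 and 191 expected counts. It was the 1 member that did not reach 1 TPM in every library, a level that 9641 protein-coding genes reached, and replicate 3 was again the lowest (mean without it 3.32 ± 1.29 TPM, SD, n = 3). The Cebpd value is uncertain, because 562 bases of its exon overlap an exon of Spidr on the opposite strand and the strand setting of the counting is not given in the sources used here. Spidr-201, the transcript with that exon, was at 8.02, 4.90, 5.85 and 4.94 TPM, above Cebpd in each library, and was not lowest in replicate 3. A Tmem189 transcript likewise overlaps 312 bases of Cebpb, but it was listed at no more than 0.700 TPM, and the antisense gene Gm45091 shares 51 bases with Cebpa at no more than 0.610 TPM.

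**Figure D1:**
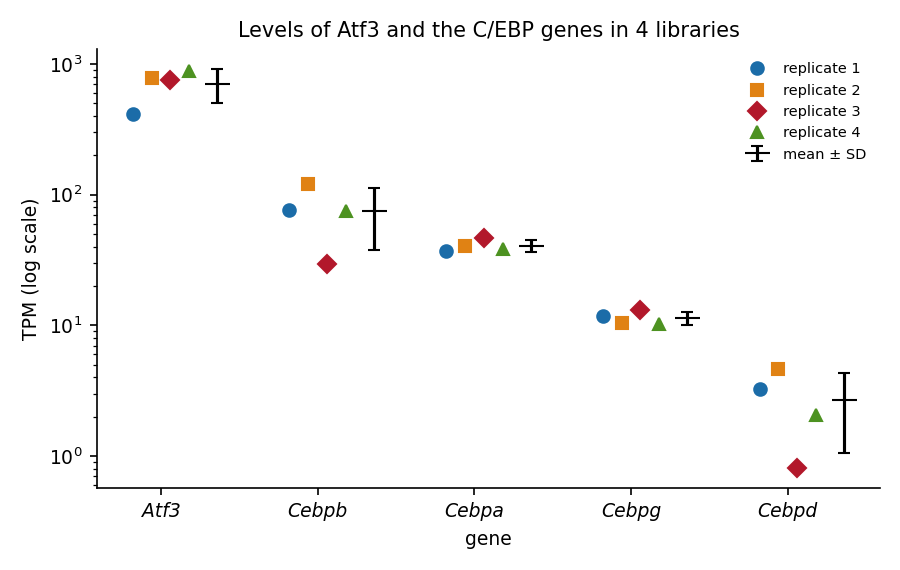
TPM of each gene (log axis) in replicates 1 to 4, with the mean and SD to the right of the points. Atf3 lies above all C/EBP genes in every library, Cebpa and Cebpg vary little, and replicate 3 is the lowest point of Cebpb and Cebpd.

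Neighbours in this order were compared within each library on the log2(TPM + 0.1) scale, where the smallest p that the exact 2-sided sign-flip permutation test can give over 4 libraries is 0.13 (rounded). Atf3 exceeded Cebpb by 3.34 ± 1.02 log2 units (SD, n = 4), from 5.36-fold in replicate 1 to 25.6-fold in replicate 3 (exact p = 0.13). Cebpa exceeded Cebpg by 1.83 ± 0.14, between 3.12-fold and 3.88-fold, the steadiest of these ratios (exact p = 0.13). Cebpg exceeded Cebpd by 2.27 ± 1.15 (exact p = 0.13). The 4 libraries gave the same direction for each of these 3 ratios. Without replicate 3 the differences were 2.89 ± 0.60, 1.82 ± 0.17 and 1.74 ± 0.56 log2 units (SD, n = 3).

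Cebpb and Cebpa were not separated by level. The ratio of Cebpb to Cebpa was 2.08, 2.98, 0.627 and 1.96 in replicates 1 to 4, a mean difference of 0.73 ± 0.97 log2 units (SD, n = 4) with 3 of 4 libraries on the same side (exact sign-flip p = 0.25). Without replicate 3 the mean difference was 1.20 ± 0.33 (SD, n = 3), where the test allows nothing lower than its exact p = 0.25. In replicates 1, 2 and 4 Cebpb was about double Cebpa or more, and in replicate 3 it was the lower of the pair.

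Put as shares of all C/EBP messages, the make-up differed in the same library. Of the summed TPM of Cebpa, Cebpb, Cebpd, Cebpe and Cebpg, Cebpb held 59.6%, 68.4%, 32.4% and 59.7%, and Cebpa held 28.6%, 22.9%, 51.7% and 30.4%. Cebpg held 5.91% to 14.5%, highest in replicate 3, and Cebpd 0.897% to 2.63%, lowest there. The sum itself was 129, 177, 90.3 and 126 TPM, so replicate 3 had the lowest total and the only one led by Cebpa. In bulk RNA, fewer cells of a type and less RNA per cell cannot be told apart.

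**Figure D2:**
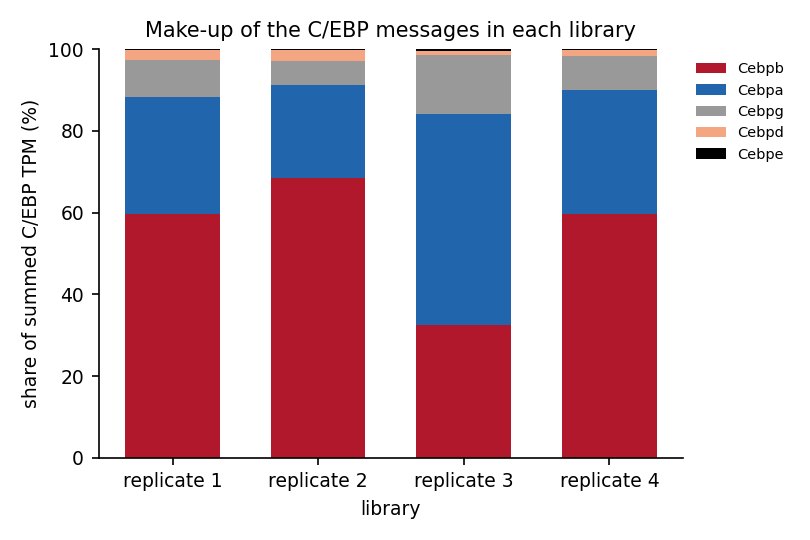
Share of the summed C/EBP TPM (vertical axis, %) held by each of 5 genes in each library. Cebpb holds the largest share in replicates 1, 2 and 4, and Cebpa holds 51.7% in replicate 3.

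To ask whether libraries differed by more than counting error, rounded expected counts were tested against scaled library sizes by a chi-square test in the 12626 genes whose counts averaged 10 or more, adjusted over all of them (Benjamini-Hochberg). All 5 members passed at 0.05, as did 88.6% of the genes tested, so passing says little about a member. Without replicate 3 Cebpg no longer passed, with a 1.02-fold range (adjusted chi-square p = 0.897). A gene that passed was called variable if, in addition, its scaled count had a range of 2-fold or more across libraries, which held for 33.0% of the genes tested and for 3 members, Cebpb, Cebpd and Atf3. The median member had an SD of 0.52 between libraries on the log2(scaled CPM + 1) scale, against 0.27 for all genes tested.

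Cebpb had scaled counts of 61.1, 98.2, 25.0 and 64.5 CPM (counts scaled by TMM library size), a 3.93-fold range, and Cebpd of 7.19, 9.94, 1.95 and 5.05, a 5.11-fold range (adjusted chi-square p = 2.09e-41). Their SDs of 0.81 and 0.81 log2 units exceeded those of 95.6% and 95.6% of genes. Both ranges rested on replicate 3. Without it they were 1.61-fold for Cebpb and 1.97-fold for Cebpd, below the 2-fold limit, while without replicate 2 they were 2.51-fold and 3.61-fold. With replicate 3 left out, Atf3 was the 1 member called variable, where 26.5% of genes were.

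Atf3 had scaled counts of 454, 882, 592 and 982 CPM, a 2.16-fold range and an SD of 0.52, above 84.7% of genes. Its call rested on the outer libraries, since the range was 1.66-fold without replicate 1 and 1.99-fold without replicate 4. Replicate 1 also had the highest ribosomal RNA share, and the range was 2.15-fold when ribosomal and mitochondrial RNA were left out before scaling. In replicate 3 the position of Atf3 depends on the unit, being above its own mean by 0.14 log2 units in TPM and below it by a deviation of -0.23 in scaled counts. The TPM of Atf3 there includes 293 TPM assigned to the short transcript Atf3-202, described below, from 1813 expected counts. Cebpa and Cebpg each had a 1.28-fold range (adjusted chi-square p = 9.14e-13 and 4.51e-11), with SDs of 0.15 and 0.17. Without replicate 3 the range of Cebpa was 1.14-fold (adjusted chi-square p = 0.00126).

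**Figure D3:**
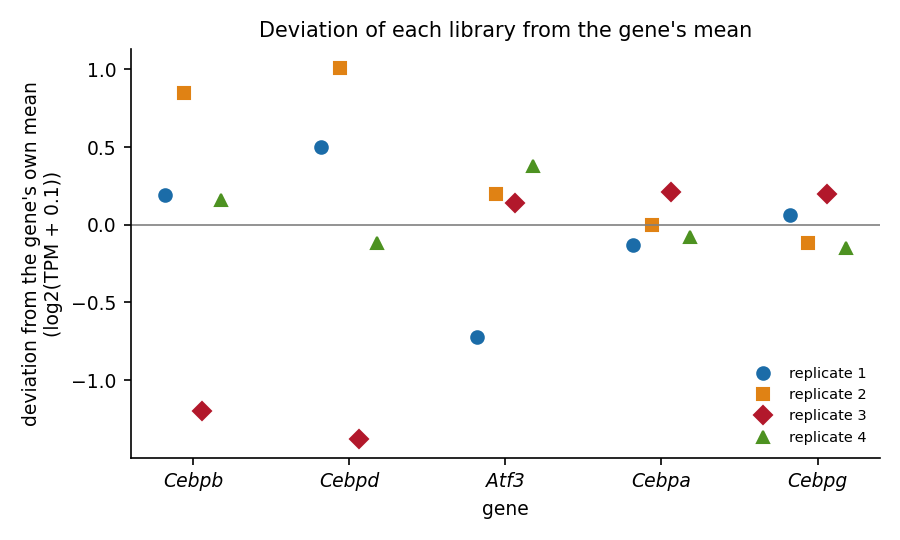
Deviation of each library from the gene's own mean on the log2(TPM + 0.1) scale, for each gene along the horizontal axis. Replicate 3 lies at -1.20 for Cebpb and -1.38 for Cebpd and at 0.21 and 0.20 for Cebpa and Cebpg, and replicate 1 lies at -0.72 for Atf3.

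The dispersion that edgeR estimated with an intercept-only model was taken over all 4 libraries, replicate 3 included. The biological coefficient of variation was 0.401 for Cebpb and 0.501 for Cebpd, against a trend of 0.251 and 0.366 for genes of their level. For Atf3 it was 0.309 against 0.277, and for Cebpa and Cebpg 0.199 and 0.213 against 0.252 and 0.264. Cebpb and Cebpd thus lay above the trend and Cebpa and Cebpg below it, as a description with no test.

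Several other measures moved with replicate 3. Of 14 granulocyte precursor markers, 6 reached 1 TPM in every library, as did 9641 of 22028 protein-coding genes. By TPM 13 of the 14 were highest in replicate 3. Enough counts to test were found for 9, and 9 were called variable, where 33.0% of all genes tested were, but some of these passed the count minimum through replicate 3 (Mpo had 16, 4, 61 and 2 counts), so nothing is read from that number. Ngp, a granule protein gene, was at 17.6, 6.44, 66.3 and 3.67 TPM, S100a9 at 101, 61.6, 457 and 41.9 TPM, and S100a8 at 74.0, 36.8, 181 and 22.0 TPM. The early granule gene Mpo was near 0, at 0.610, 0.0800, 1.13 and 0.0900 TPM, and Ly6g was listed at 0 in 3 libraries. Macrophage markers summed to 20383, 35771, 21010.4 and 28749 TPM, a sum that is mostly Lyz2 (14541 TPM in replicate 1 and 14293 in replicate 3). Single markers differed between those libraries, such as Mertk at 41.1 and 97.7 TPM in replicates 1 and 3.

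Base composition moved with replicate 3 as well. Among genes whose coding sequence is at least 70% G and C, 45.6% of 57 had their lowest scaled value in replicate 3, against 25.2% of all 10817 genes, with a median deviation there of -0.19 log2 units. Cebpb and Cebpd, in that class, deviated by -1.13 and -1.10, and Cebpa, of the same class, by 0.18 in the other direction. Over the whole main transcript, however, Cebpd is 51.6% G and C, above only 57.4% of genes, against 67.2% for Cebpb and 62.6% for Cebpa. Genes of 50% to 60% by that measure had a median deviation of -0.07 in replicate 3, and those of 60% or more one of -0.24. Replicates 1 and 2 were also recorded with 6 read files each, and replicates 3 and 4 with 4 each. Between replicates 1 and 2 alone the ranges were 1.61-fold for Cebpb and 1.38-fold for Cebpd, and between replicates 3 and 4 alone they were 2.51-fold and 2.52-fold. The part of granulocyte markers and of base composition in these values was not tested.

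Cebpa and Atf3 have annotated spliced forms whose estimated shares differed between libraries. These shares are uncertain, because the forms share most of their sequence and reads across the junctions were not counted separately. The part of base composition in the shares was not tested. The junctions are shown because each sets an internal stretch that the short form lacks. Capitals mark the GT and AG at the ends of the removed stretch, and each joined sequence is the short form across the junction. Cebpa-202 lacks chr7:35119772-35120246 on the plus strand, 475 bases of the coding part of the Cebpa-201 exon, which are 76.8% G and C.
Cebpa left edge: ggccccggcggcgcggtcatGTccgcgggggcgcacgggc
Cebpa right edge: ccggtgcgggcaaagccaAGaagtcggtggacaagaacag
Cebpa-202 joined: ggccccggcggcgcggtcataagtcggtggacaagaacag

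Atf3-202 lacks chr1:191177341-191177446 on the minus strand, 106 bases that Atf3-201 holds within its first coding exon, shown whole after the edges. Its first exon is also shorter, at 16 bases against 248, and so is its last, at 255 against 1384.
Atf3 left edge: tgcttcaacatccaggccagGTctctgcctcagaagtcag
Atf3 right edge: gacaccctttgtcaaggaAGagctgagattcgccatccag
Atf3-202 joined: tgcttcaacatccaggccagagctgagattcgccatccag
Atf3-202 removed: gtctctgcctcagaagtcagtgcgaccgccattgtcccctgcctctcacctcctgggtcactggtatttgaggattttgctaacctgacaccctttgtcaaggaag

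Neither length is a multiple of 3. The Cebpa junction falls after 117 complete codons, and the annotation gives Cebpa-202 159 codons where Cebpa-201 has 359, so beyond those 117 codons its annotated reading frame differs and is shorter. The basic leucine zipper of C/EBPα is known to lie at its carboxy-terminal end. The Atf3 junction falls after 8 complete codons of Atf3-201, and Atf3-202 is annotated as a processed transcript with no coding sequence. Another form, Atf3-203, holds the same 181 codons as Atf3-201 but starts far upstream.

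**Figure D4:**
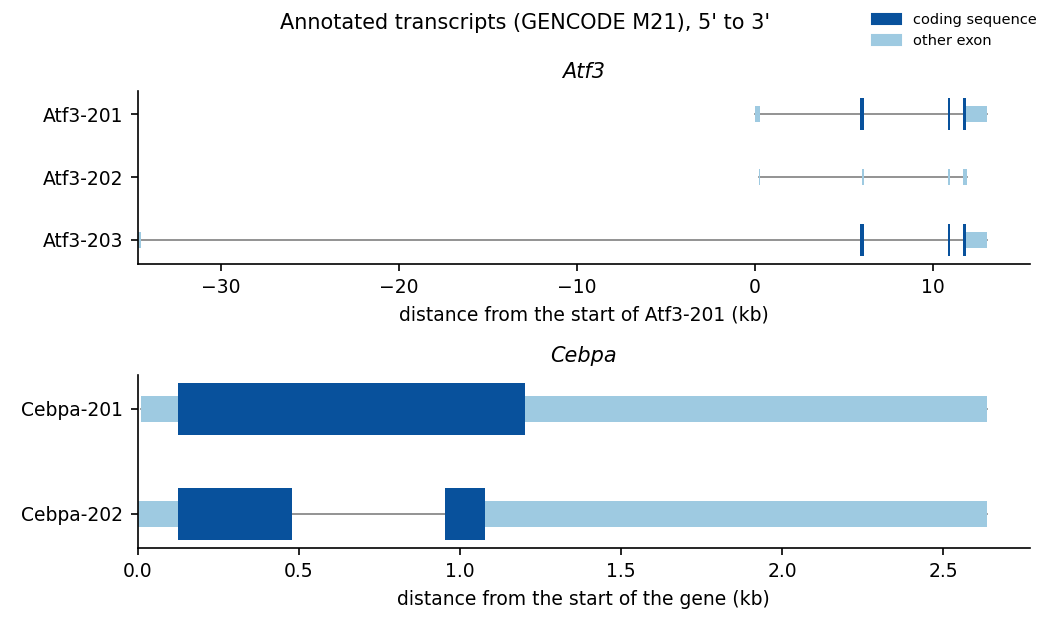
Annotated transcripts of Atf3 and Cebpa, drawn 5′ to 3′ with distance in kb on the horizontal axis, coding sequence as tall dark boxes and other exon sequence as low pale boxes. Atf3-203 starts far upstream of Atf3-201, Atf3-202 has no coding sequence, and Cebpa-202 lacks a stretch of the Cebpa-201 coding sequence.

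The unspliced Cebpa-201, which encodes the full protein, was at 25.6, 30.6, 18.2 and 20.8 TPM, and the spliced Cebpa-202 at 11.3, 9.94, 28.4 and 17.4 TPM. Cebpa-202 therefore held 30.6%, 24.5%, 60.9% and 45.7% of the gene, a mean of 40.4% ± 16.3 (SD, n = 4). In the second quantification, made straight from the reads, the shares were 10.6%, 11.3%, 50.1% and 29.1%, a mean of 25.3% ± 18.7 (SD, n = 4). Replicate 3 had the highest share and replicate 4 the next in both, and the second quantification gave the lower share in every library. In the first quantification Cebpa-201 was lowest and Cebpa-202 highest in replicate 3, under even gene-level values. In the second, Cebpa-201 was nearly flat at 23.0, 23.8, 20.3 and 22.1 TPM, and Cebpa-202 was at 2.73, 3.02, 20.4 and 9.08 TPM. The summed TPM of the gene was then uneven, at 25.7, 26.8, 40.7 and 31.2 TPM. This unevenness was in TPM only, since the scaled counts of Cebpa had a 1.23-fold range there, against 1.28-fold in the first quantification. Without replicate 3 the first quantification gave Cebpa-201 66.4% ± 10.9 of the gene (SD, n = 3), against 59.6% ± 16.3 (SD, n = 4) with it.

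Atf3-201, the common coding form, was at 412, 783, 456 and 807 TPM. Atf3-202 held 0%, 0%, 39.0% and 9.14% of the gene in the first quantification and 23.6%, 20.9%, 38.1% and 15.5% in the second. The quantifications agree on replicate 3 having the highest share and differ on whether replicates 1 and 2 had any, so a share of Atf3-202 in those 2 libraries cannot be given. Atf3-202 is 517 bases long and Atf3-201 1984, so reads assigned to the short form count for more TPM. Without replicate 3 Atf3-201 held 96.9% ± 5.24 of the gene in the first quantification (SD, n = 3), against 87.9% ± 18.5 (SD, n = 4) with it. In replicate 3 the 1813 expected counts given to Atf3-202 stood for 293 TPM, against 19498 counts for the 456 TPM of Atf3-201. The upstream form Atf3-203 held at most 0.126% in the first quantification and 0.205% in the second, so nearly all Atf3 was assigned to Atf3-201 and Atf3-202. Atf3-202 is annotated to begin inside the first exon of Atf3-201, so these 2 forms do not share a start.

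**Figure D5:**
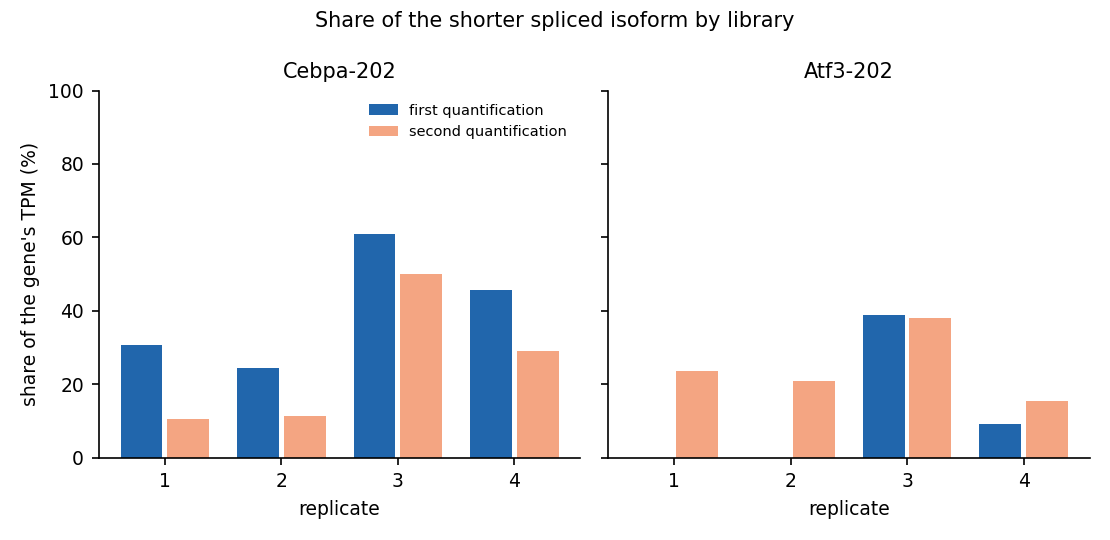
Share of the gene's TPM (vertical axis, %) held by Cebpa-202 and Atf3-202 in each replicate, by the first (dark) and second (pale) quantification. Replicate 3 has the highest bar for both transcripts in both quantifications, and Atf3-202 is at 0% in replicates 1 and 2 in the first quantification only.

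Cebpg was mostly assigned to Cebpg-202, a transcript of 4709 bases with a long end after the coding sequence, at 85.7%, 98.0%, 92.0% and 91.0% of the gene (62.5%, 78.1%, 84.5% and 80.6% in the second quantification). Its other coding form, Cebpg-201, has the same 150 codons. Cebpd-201 held 100.0% of Cebpd in 3 libraries and 93.5% in replicate 2.

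For each member, the protein-coding genes with a mean of at least 10 TPM whose deviations over the 4 libraries were most like its own were found by the root mean square difference on the log2(TPM + 0.1) scale, among 6440 candidates. Nearest to Cebpb were CAAA01147332.1 at 0.133, Insig1 at 0.137 and Marcksl1 at 0.152, and no gene came within 0.1. Insig1, for example, was at 125, 182, 57.1 and 123 TPM. Nearest to Cebpd were Tgfbi at 0.148, Ece1 at 0.233 and Tm7sf2 at 0.244, again with none within 0.1. Atf3 was closest to Adi1 at 0.029, Pira2 at 0.040 and Coro7 at 0.040, with 33 genes within 0.1. The even genes had many like them, 240 within 0.1 of Cebpa (among the nearest Preb and Ifnar2) and 276 of Cebpg (nearest Etf1, Tfg and Phrf1). Among the members themselves the closest pairs were Cebpa with Cebpg at 0.12 and Cebpb with Cebpd at 0.24, and the other pairs lay between 0.39 and 1.08. With 4 libraries these are descriptions of shared shape only.

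The remaining C/EBP-named genes ranged from nearly absent to the level of Cebpb. Cebpe, which acts late in granulocyte maturation, was at 0.290, 0.210, 0.540 and 0.160 TPM, from 4 to 13 counts. Ddit3, whose product CHOP dimerizes with other C/EBPs, was at 58.3, 70.5, 91.3 and 98.5 TPM, a mean of 79.7 ± 18.5 TPM (SD, n = 4) close to that of Cebpb. Cebpz, named alike but not a zipper protein, was at 16.4, 10.5, 10.8 and 8.75 TPM. Neither Ddit3 nor Cebpz was called variable, and Cebpe had too few counts to test.

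Of 26 possible dimer partners of ATF3 and related zipper factors, 24 were at 1 TPM or more in every library. That level was reached by 9641 of 22028 protein-coding genes. Of 25 tested, 10 were called variable, near the share of 33.0% of all genes tested. Junb was the highest, at 1198, 1299, 606 and 899 TPM, followed by Fos at 151, 198, 258 and 235 TPM. The most variable was Fosb, at 2.43, 56.6, 47.5 and 74.3 TPM, which like Atf3 was lowest in replicate 1. Next to it was Fosl1, at 2.92, 0.410, 0.2 and 0.0800 TPM, highest there. Fosl1 had 44, 2, 8 and 4 counts and passed the count minimum through replicate 1, so nothing is read from its call. Of the 10 variable genes, 6 were lowest in replicate 1, as were 33.9% of all variable genes.

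Genes that control C/EBPs, such as the Trib adaptors and Cop1 ligase that target C/EBPα for breakdown, had 2 of 19 tested called variable, against 33.0% of all genes tested. They were Fbxw7, a ubiquitin ligase subunit at 8.55, 15.1, 17.9 and 14.4 TPM, and Crtc3, a CREB coactivator at 5.88, 9.32, 4.26 and 6.63 TPM. Calr, whose product has been described as a repressor of C/EBP translation, was the highest at 857 ± 274 TPM (SD, n = 4), with 1239.7 TPM in replicate 3. Spi1, which encodes PU.1, stood at 281 ± 24.6 TPM.

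In the integrated stress response, through which ATF4 is known to raise Atf3 and Ddit3, 18 of 24 genes reached 1 TPM in every library. So did 9641 of 22028 protein-coding genes. Of 21 tested, 8 were called variable, near the 33.0% of all genes. Of these, 6 were highest in replicate 1, as were 42.0% of all variable genes. Ppp1r15a, which encodes the phosphatase subunit that ends this response, stood at 555, 1124, 487 and 1472 TPM, and the amino acid transporter chain gene Slc3a2 at 379, 353, 341 and 401 TPM. The most variable were the serine synthesis gene Psat1, at 21.4, 2.15, 6.16 and 2.75 TPM, and Slc7a5, at 7.0, 1.16, 0.850 and 0.710 TPM. Both were highest in replicate 1, where Atf3 was lowest.

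Genes known as C/EBP targets in myeloid cells had 15 of 24 tested called variable, and genes reported as restrained by ATF3 had 8 of 12, a list that holds Atf3 itself and shares genes with the first. These shares can be read against 33.0% of all genes tested, with no test of the lists. Il6, a cytokine gene in both lists, was at 4.93, 37.0, 6.40 and 41.7 TPM, low in replicates 1 and 3. Nos2 was at 0.380, 0.5, 1.49 and 2.51 TPM, and Ch25h, which encodes cholesterol 25-hydroxylase, at 15.2, 14.5, 1.72 and 5.50 TPM, lowest in replicate 3 like Cebpb and Cebpd. The highest were the lysozyme gene Lyz2 at 19685 ± 6749 TPM, Tnf at 5552 ± 1022 TPM and Il1b at 2923 ± 697 TPM (SD, n = 4).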

How the data were processed

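Each of the 4 libraries had 3 deposited tables, for genes and, by 2 quantifications, for transcripts, on mm10 with GENCODE M21 per the deposited lists of files. The quantification tools and their versions, and whether strand was used, are not given in the sources at hand. Per the file headers, the deposited values are expected counts and TPM, the latter as a maximum likelihood estimate and a posterior mean. The authors also deposited each transcript's percent of its gene's TPM and the bounds of a credibility interval of the TPM, a signal whose level is not stated, which was not used for error. The second transcript tables hold estimated counts and TPM as deposited, summed here to genes. Of 81881 rows, 55536 were genes; the others, 0.103% to 0.118% of counts, were left out.

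Expected counts were rounded and scaled with TMM (edgeR 4.0.16, R 4.3.3; DESeq2 1.42.0 size factors as an alternative). The chi-square test has 3 degrees of freedom and covers counting error only, since reads are not independent molecules. Ratios used TPM + 0.1. The remaining steps used Python 3.11.15 with SciPy 1.17.1, pandas 2.3.3 and matplotlib 3.10.9. The chi-square test was also run on simulated counts with counting error only and some genes changed in a single library. Those counts lack the wider spread of the real libraries, so the run does not show how the test behaves under that spread. Named genes were the members, the 3 genes most like each, and from each of 8 lists the 2 highest and the 2 most variable, with all C/EBP-named genes. Overlapping genes were named for their position, and Ly6g was chosen after its values were seen. A gene that this rule selects is not reported here. The members and lists were chosen with earlier results of these data known. Alternatives were other scalings, filters, estimates and pseudocounts, and each library left out in turn.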

Additional observations from a re-analysis of the deposited data

Results flagged for a closer look

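Among 13 values checked for a library far from the others (5 levels, 4 ratios between neighbours in level and 4 isoform shares), 1 stood out. The share of Cebpd held by its main transcript Cebpd-201 was 93.5% in replicate 2 and 100.0% in the other libraries. The rest of Cebpd in replicate 2 was Cebpd-202, a non-coding form of 430 bases given 1.06 expected counts, and the second quantification gave Cebpd-201 94.7% there. Chance flags about 1 in 20 groups of freely varying values, a rate that does not apply here: with 3 libraries at 100.0%, any departure of the fourth would stand out.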

How the results depend on the processing

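Over the alternatives run, 157 values were labelled the same, 12 moved, 9 fell below a threshold and none reversed. A value was the same if it kept its direction or its side of the threshold, or stayed within the spread between libraries. Numbers of genes or members called variable were the same if within 1.5-fold of the main number, so 2 members against 3 counted as the same. The mean level of Cebpa was 31.1 TPM in the second quantification and, with TPM rescaled over nuclear protein-coding genes, which raises every member, 50.1 TPM, and that of Cebpg was then 14.1 TPM. The number of genes called variable was 7347 with a range of 1.5-fold, 2657 between replicates 1 and 2 alone and 1264 between replicates 3 and 4 alone, a pair of comparisons chosen after seeing the data. Between replicates 1 and 2 alone 0 members were called variable by the chi-square test and fold limit, where 21.3% of genes were, although Cebpb, Cebpd and Atf3 still passed the test itself, with ranges of 1.61-fold, 1.38-fold and 1.94-fold. Between replicates 3 and 4 alone 2 members were called, Cebpb and Cebpd, where 9.92% of genes were, and Atf3 had a range of 1.61-fold. Without replicate 1, 2048 genes (16.1% of those tested) and 2 members were called variable, and without replicate 2, 3505 genes (27.7%) and 3 members. Without replicate 3 these were 3329 genes (26.5%) and 1 member, and without replicate 4, 3683 genes (29.2%) and 2 members. The range of Atf3 was 1.96-fold in the second quantification. The share of Cebpd-201 was 86.7% from posterior means, and that of Cebpg-202 was 86.2% from posterior means and 76.5% in the second quantification; the cause was not tested. Low depth limits Cebpd, Cebpe and the minor transcripts. No paired analysis was possible because the samples form 1 group.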
